A study of Mus musculus with 18 samples.

Results

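Extraocular muscle, the skeletal muscle that moves the eye, was set against heart muscle in mice of 1 genotype, dko. The comparison rests on 6 of the 18 arrays of the study: the 3 titled as extraocular dko and the 3 titled as heart dko. All 18 arrays measured total RNA of whole muscle from mice 8 weeks old, in 6 groups of 3. The groups were extraocular muscle, leg muscle and heart of dko mice and of mdx mice. The labels name mdx, which has no dystrophin, as the control. By usual usage dko mice lack both dystrophin and its relative utrophin, but the labels do not spell this out. If so, the loss of dystrophin is common to all 6 groups and the loss of utrophin to the dko groups only. The labels give no transgene, treatment, sex or strain. They do not say whether the 3 arrays of a group came from separate animals or pools, so every p here reflects the scatter of these samples alone, and that scatter may be technical.

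Skeletal muscle fibres and heart muscle cells are both striated, and each builds its filaments from its own members of the same protein families: myosin heavy and light chains, actins, tropomyosins and the 3 troponins that switch the filament on when calcium arrives. In skeletal fibres the voltage sensor of the surface membrane pulls the calcium release channel open directly, whereas in heart cells a small calcium entry triggers release and neighbouring cells are joined end to end by intercalated discs. Heart burns mostly fatty acids. Extraocular muscle is known for its many fibre types, for embryonic and neonatal myosins that persist in the adult, and for being spared where dystrophin alone is missing.

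Values are linear intensity units that the authors scaled to the same trimmed mean on every array. The 3 values given for a tissue are always those of the arrays numbered 1, 2 and 3, in that order. Differences are log2(intensity + 166.7) in extraocular muscle minus heart, with a standard error (SE) from limma, so positive values are higher in extraocular muscle. The added constant makes a fold smaller than the ratio of the raw values where a probe set is dim. A probe set was called where its limma p, Benjamini-Hochberg adjusted across the 8888 tested, was under 0.05. The fit held the replicate number as a block common to all 18 arrays. Array medians ran from 525.6 to 671.8 and maxima from 33355 to 74434. Among the 6 arrays here, those numbered 3 stood apart: their medians were 529.4 and 551.95 against 629.1 to 661.65 on the others, and their maxima were at least 63032 against at most 46091. Correlations of log2 values were 0.877 to 0.945 within dko extraocular muscle, 0.859 to 0.938 within dko heart and 0.778 to 0.866 between the tissues. These numbers of arrays limit the precision: the SE of a difference had a median of 0.20.

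Of the 8888 probe sets tested, 1650 (18.6%) were called between dko extraocular muscle and dko heart. The directions were nearly even, with 823 higher in extraocular muscle (9.26%) and 827 higher in heart (9.3%), standing for 633 and 647 genes of the 6551 tested. A difference of at least 2-fold was reached by 376 of the former (4.23%) and 289 of the latter (3.25%). The 3 extraocular arrays lay wholly above the 3 heart arrays for 987 probe sets (11.1%) and wholly below them for 936 (10.5%), and 1301 of the 1650 called probe sets (78.8%) had no overlap. The median difference over all probe sets was -0.012, so list medians below can be read against 0. List counts can be set beside the shares of 9.26% higher in extraocular muscle and 9.3% higher in heart. Those are shares of probe sets, whereas a list counts genes. The lists were chosen with earlier results of these data known, so a count above these shares may be partly built in. Without the replicate block the calls were 376 and 305. Without all arrays numbered 3 they were 513 and 444.

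**Figure D1:**
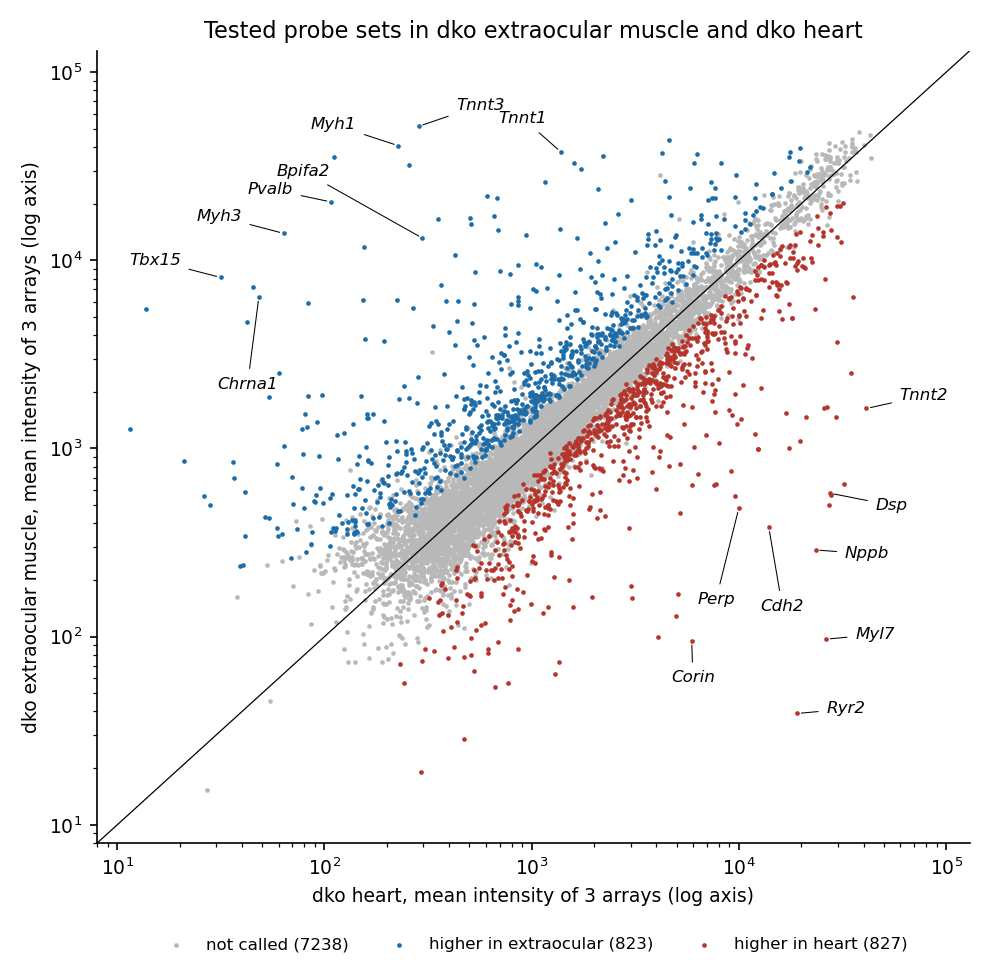
Mean intensity of the 3 dko heart arrays (x, log axis) against the 3 dko extraocular arrays (y, log axis) for the 8888 tested probe sets. Blue points are the 823 called higher in extraocular muscle, red points the 827 called higher in heart and grey points those not called; 16 of the most different genes are named, and the line marks equal means.

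The tissue labels were checked against defining markers. Of 10 heart markers, 9 had a named probe set, all 9 were tested, and 8 were called higher in heart. The exception was Gata4, a heart transcription factor, which read 2230, 3186 and 3116 in heart and 1434, 1105 and 677 in extraocular muscle and did not pass (-1.31 ± 0.49, adjusted p 0.0784), although its arrays did not overlap. Of 11 skeletal muscle markers, 10 were bright enough to be tested, and all 10 were higher in extraocular muscle. The remaining marker, Myh2, the heavy chain of fast oxidative fibres, read at most 58.3 on any of the 6 arrays and was too dim to be tested. The defining extraocular myosin Myh13 was not analysed here, so the labelled muscle was checked mainly as skeletal. Myh3 and Myh8 were called higher than in heart, but against dko leg muscle neither was called (0.70 and 0.59, limma adjusted p 0.164 and 0.0637). Hoxa10, a limb patterning gene, averaged 15.3 in dko extraocular muscle and 377 in dko leg (-1.54, limma adjusted p 0.000459). Tbx15 and Pitx1, also taken as limb markers, went the other way. Both were higher in dko extraocular muscle than in dko leg (1.24 and 0.81, limma adjusted p 0.0122 and 0.0293). Of the genes the genotype concerns, utrophin (Utrn) read 279.8, 220.2 and 414 in extraocular muscle and 219.9, 292 and 262 in heart on 1 probe set and 222, 271 and 345 in extraocular muscle and 348, 413 and 297 in heart on the other. Neither was called (adjusted p 0.641 and 0.666). In mdx the first averaged 748 in extraocular muscle and 644 in heart. Dystrophin (Dmd) read 486, 228 and 186 in extraocular muscle and 285, 154 and 315 in heart and was not called either (adjusted p 0.766). These probe sets need not lie in the disrupted parts of the genes.

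Among the genes with the widest differences were those of the contractile filament, calcium release, cell junctions and hormones. On the skeletal side stood Myh1 and Myh4, the heavy chains of fast fibres, and on the cardiac side Myl7, the atrial regulatory light chain, and Nppb, a natriuretic peptide. Promoters are shown for a few of the genes with the widest differences, as a description. RefSeq windows of 250 bases before the start (GRCm38.p6) were found for 9 of the 12 genes highest in extraocular muscle and 10 of the 12 highest in heart. They were searched on both strands for the E-box CAGCTG, the MCAT motif CATTCC, the letters GATAA, the CArG box and the MEF2 box. Below are the 2 windows of each side with the most kinds of motif, with matches in capitals on whichever strand they lie. Myh4 is at chr11:67237562-67237811, Myh1 at chr11:67199852-67200101, Tnnt2, the cardiac troponin T gene, at chr1:135836084-135836333 and Nppb at chr4:147985650-147985899, all on the plus strand.
Myh4: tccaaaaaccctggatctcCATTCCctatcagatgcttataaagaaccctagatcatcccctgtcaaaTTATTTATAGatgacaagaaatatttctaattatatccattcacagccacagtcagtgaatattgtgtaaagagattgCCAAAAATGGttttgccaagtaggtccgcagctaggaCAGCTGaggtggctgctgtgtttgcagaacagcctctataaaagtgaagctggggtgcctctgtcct
Myh1: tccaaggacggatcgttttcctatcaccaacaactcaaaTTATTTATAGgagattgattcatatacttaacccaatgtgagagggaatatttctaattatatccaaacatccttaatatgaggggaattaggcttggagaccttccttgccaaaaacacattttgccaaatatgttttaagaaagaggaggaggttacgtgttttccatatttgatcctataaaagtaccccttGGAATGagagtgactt
Tnnt2: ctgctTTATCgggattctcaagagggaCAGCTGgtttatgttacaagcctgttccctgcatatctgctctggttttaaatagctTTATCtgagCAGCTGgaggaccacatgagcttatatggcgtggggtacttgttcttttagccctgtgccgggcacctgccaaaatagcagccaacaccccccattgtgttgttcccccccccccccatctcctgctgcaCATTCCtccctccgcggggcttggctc
Nppb: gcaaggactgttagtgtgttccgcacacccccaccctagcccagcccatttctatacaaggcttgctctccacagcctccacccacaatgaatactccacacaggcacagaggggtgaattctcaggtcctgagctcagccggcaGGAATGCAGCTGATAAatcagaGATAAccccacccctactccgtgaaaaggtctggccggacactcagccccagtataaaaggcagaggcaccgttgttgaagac

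Counted in bases upstream of the start, Myh4 held an E-box at 67, a CArG box at 104, a MEF2 box at 182 and an MCAT motif at 231. Myh1 held an MCAT motif at 16 and a MEF2 box at 211. Tnnt2 had E-boxes at 157 and 223, an MCAT motif at 27 and GATAA at 166 and 245. Nppb had an MCAT motif at 105, an E-box at 99 and GATAA at 94 and 83, and its E-box shares letters with the first GATAA. Over the windows of all 27025 genes in the table, 12.9% held the E-box, 12.6% the MCAT motif, 23.1% GATAA, 1.39% the CArG box and 2.98% the MEF2 box. In the 9 extraocular genes the counts were 2, 2, 0, 1 and 3, and in the 10 heart genes 3, 5, 5, 1 and 1. A match is a string of letters in this window and not a site of binding, and no test was made of these counts.

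Fast fibre proteins were nearly all higher in extraocular muscle: 11 of 13 tested members were called in that direction and 1 in the other, with a median difference of 4.34. Myh1 read 29944, 33985 and 58159.9 in extraocular muscle and 31, 632 and 17.4 in heart. The heart arrays were near the bottom of the scale except number 2, and the groups were far apart (6.99 ± 0.54, 127-fold, adjusted p 3.34e-07). Myh4 gave 18890.1, 29652 and 57332 in extraocular muscle and 26.4, 281 and 26.6 in heart, with the same heart array highest (6.97 ± 1.00, 125-fold, adjusted p 0.000175). A second Myh4 probe set disagreed: it read 1504, 982 and 894 in extraocular muscle and 1575, 1413 and 506 in heart. It overlapped between tissues and was not called (0.046, adjusted p 0.938). In mdx this second probe set was called higher in heart (-1.03, limma adjusted p 0.01996). Myosin heavy chain genes are close copies of one another, so a probe set may read more than its own gene. Tnnt3, fast troponin T, read 40193, 42780.4 and 71784 in extraocular muscle and 245, 273 and 338 in heart, a 111-fold difference with tight heart values (6.79 ± 0.40, adjusted p 2.02e-08). Actn3, the alpha-actinin of fast fibre Z-discs, read 13650.2, 14208 and 21956 in extraocular muscle and 445, 231 and 379.5 in heart and did not overlap (5.005 ± 0.84, adjusted p 0.000688). A second Actn3 probe set was called the same way with a smaller difference (2.50, adjusted p 3.56e-07).

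The fast list had 1 member higher in heart. Myom2, an M-band protein, read 10791, 8656 and 10075 in heart and 1507, 1433 and 1128 in extraocular muscle (-2.72 ± 0.16, adjusted p 2.82e-08) and averaged 11127 in dko leg muscle. Every heart array was above every extraocular array. Acta1, skeletal actin, lay below the list median and read 16595, 28889.7 and 53392 in extraocular muscle and 4861, 6807 and 6606 in heart. It passed narrowly (2.26 ± 0.73, adjusted p 0.0451), not without the block (adjusted p 0.213), and not when any 1 of the 6 arrays was left out (adjusted p up to 0.196).

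Slow fibre proteins went both ways, with 5 of 9 tested members higher in extraocular muscle and 2 higher in heart (median 2.13). Slow troponin T, Tnnt1, read 25468, 28644 and 58843 in extraocular muscle and 287, 2054 and 1814 in heart (4.81 ± 0.36, adjusted p 2.23e-07). All extraocular values were above all heart values. A second Tnnt1 probe set was called the same way with a smaller difference (1.51, adjusted p 1.59e-05). Slow troponin I, Tnni1, read 20427, 28658 and 58919.8 in extraocular muscle and 3358, 2080.2 and 1220.4 in heart (3.88, adjusted p 7.13e-06). Tpm3, slow tropomyosin, read 14673, 22585 and 55032 in extraocular muscle and 2172, 2224 and 779.6 in heart (3.93, adjusted p 4.5e-05). In both genes extraocular array 3 was the brightest and heart array 3 was the dimmest of the 3 heart arrays. The 2 members higher in heart were Myl3, the light chain that ventricle and slow fibres share, and Csrp3, a Z-disc protein that senses stretch. Myl3 read 21134, 13111 and 45989.8 in heart and 1404, 986 and 2623 in extraocular muscle (-3.78 ± 0.36, adjusted p 3.76e-06). Csrp3 differed by -2.41 (adjusted p 2.89e-07). Myh7, the slow heavy chain, did not pass: it read 15142, 21658 and 24223 in extraocular muscle and 12986, 8433 and 8143 in heart (1.04 ± 0.44, adjusted p 0.124).

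**Figure D2:**
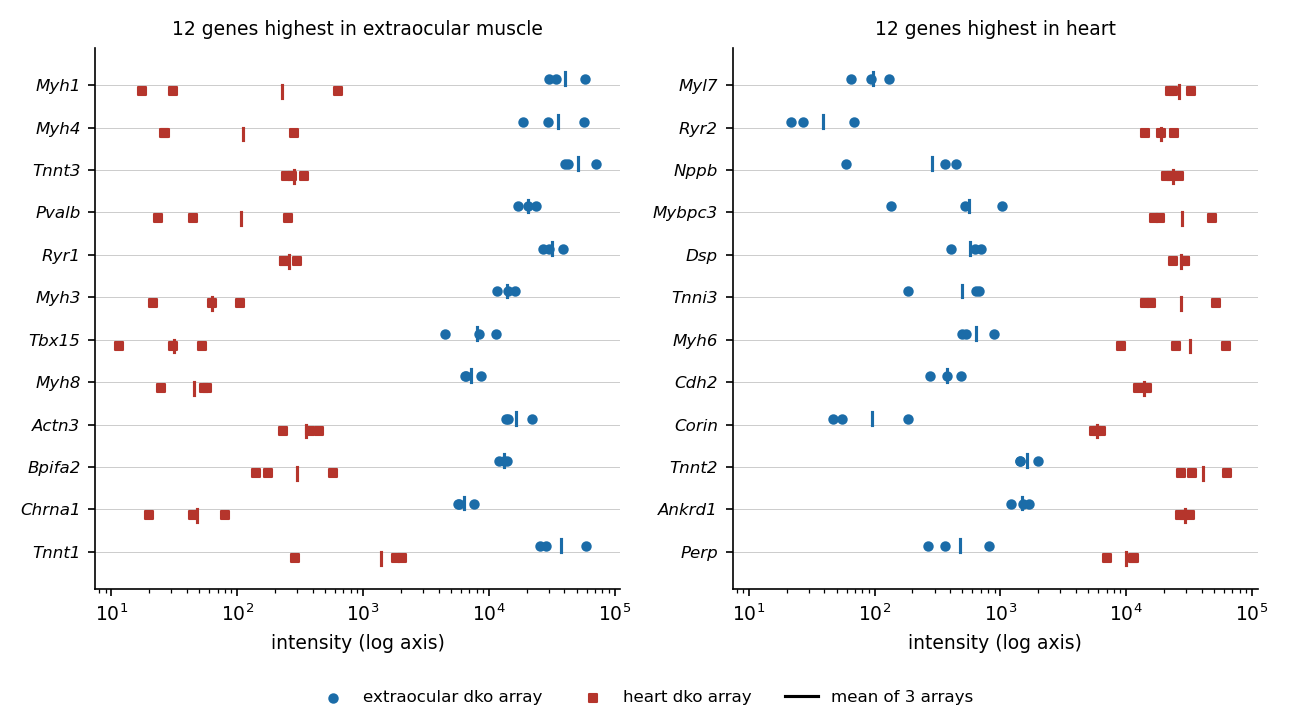
Intensity of each dko array (log axis) for the 12 called genes with the largest difference in each direction, extraocular arrays in blue, heart arrays in red and a bar at the mean of each. In none of the 24 genes did an array of 1 tissue reach the values of the other, which follows in part from choosing the widest differences.

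Cardiac contractile proteins were mostly brighter in heart, but not all of the list: 10 of 19 tested members were higher in heart, 1 was higher in extraocular muscle, and 8 were not called (median -0.83). Myl7 read 23789.7, 22159 and 33121 in heart and 94.6, 64.8 and 132 in extraocular muscle, the widest heart-side difference among named genes (-6.64 ± 0.20, 99.6-fold, adjusted p 7.16e-11). Mybpc3, which binds cardiac myosin along the thick filament, gave 16749, 18604 and 48182 in heart and 1035, 524 and 136 in extraocular muscle (-5.30 ± 0.60, adjusted p 1.87e-05). Heart array 3 was the brightest and extraocular array 3 the dimmest. Cardiac troponin I, Tnni3, had the same array pattern with 14272, 15684 and 51669 in heart and 674, 643 and 183 in extraocular muscle (-5.20 ± 0.63, adjusted p 3.93e-05). Alpha myosin heavy chain, Myh6, read 24958, 9180.2 and 62137 in heart and 501, 897 and 533 in extraocular muscle (-4.95 ± 0.59, adjusted p 3.53e-05). Its heart arrays varied widely without reaching the extraocular ones. Tnnt2 read 27234, 33372 and 63032 in heart and 1433, 2013 and 1448 in extraocular muscle and averaged 3438 in dko leg muscle (-4.44 ± 0.34, adjusted p 3.56e-07).

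Some members of the cardiac list did not pass or went the other way. Cardiac actin, Actc1, read 31063, 31549 and 42737 in extraocular muscle and 33355, 38706 and 58099 in heart, with overlapping arrays and no call (-0.28 ± 0.17, adjusted p 0.303). A second Actc1 probe set was called higher in extraocular muscle (1.46, adjusted p 0.032), so the 2 disagree. Troponin C of heart and slow fibres, Tnnc1, overlapped at 10632, 13264 and 22242 in extraocular muscle and 18720.5, 18929 and 42007 in heart and just missed the threshold (adjusted p 0.0568). Myl2, the ventricular and slow regulatory light chain, was the member higher in extraocular muscle: 16836, 12742 and 33419 in extraocular muscle and 1740.2, 60.5 and 7244 in heart (3.72 ± 0.87, adjusted p 0.0078). The heart arrays were spread widely, with number 2 near the bottom of the scale. The call was lost without heart array 2 (adjusted p 0.0504) and without the block (adjusted p 0.091), and a second member joined it without extraocular array 1. In mdx heart the same probe set averaged 11459.9.

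Markers of the atria leaned to heart, 5 of 9 tested being higher in heart and 0 in extraocular muscle (median -0.79). The heart count was 3 without the block and 3 without extraocular array 3, and without heart array 2 there was 1 call in extraocular muscle. Nppa, the atrial natriuretic peptide, read 17653, 16209.8 and 18264 in heart and 1373, 806 and 849 in extraocular muscle and showed little spread within heart (-3.93 ± 0.25, adjusted p 5.38e-08). Dkk3, a secreted Wnt modulator, followed at -1.91 (adjusted p 0.000654). Myl4, the atrial essential light chain that developing skeletal muscle also makes, read 18617, 14724 and 24521 in heart and 7518, 9236 and 12933 in extraocular muscle and passed weakly (-0.96, adjusted p 0.021, 0.192 without the block, and up to 0.095 without extraocular array 1 or 3 or heart array 1). Its second probe set pointed the other way and was not called (0.70, adjusted p 0.0636). Atrial Gja5, a gap junction protein, and sarcolipin (Sln) overlapped between the tissues (adjusted p 0.323 and 0.54).

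Calcium handling genes split by tissue. Of the skeletal calcium and channel genes, 11 of 14 tested were higher in extraocular muscle and 0 in heart (median 2.75; 7 without the block). Of the cardiac ones, 12 of 18 were higher in heart and 0 in extraocular muscle (median -1.65). The skeletal calcium release channel Ryr1 read 27128, 29908 and 38856 in extraocular muscle and 296, 237 and 236 in heart (6.23 ± 0.19, 75.2-fold, adjusted p 7.16e-11). Its cardiac relative Ryr2 read 14148, 24166 and 18995 in heart and 21.5, 68.7 and 26.9 in extraocular muscle (-6.52 ± 0.24, 92-fold, adjusted p 1.52e-10). Neither pair of groups came near overlapping. The voltage sensor subunit of skeletal muscle, Cacna1s, read 8801, 10173 and 13222 in extraocular muscle and 199.8, 742 and 337 in heart (4.28 ± 0.24, adjusted p 1.54e-08). The cardiac calcium channel Cacna1c read 6870.5, 7473 and 8419 in heart and 662, 709 and 541 in extraocular muscle (-3.27 ± 0.22, adjusted p 8.98e-08).

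Parvalbumin (Pvalb), which buffers calcium in fast fibres, read 23871, 20524 and 16937 in extraocular muscle and 44.2, 254 and 23.6 in heart (6.31 ± 0.27, adjusted p 1.08e-09). All heart arrays were far below extraocular muscle. A second Pvalb probe set ranged from 1025 to 41086 within extraocular muscle, overlapped with heart and was not called (0.73, adjusted p 0.753). Sypl2, a protein of the triad junction, was higher in extraocular muscle at 3.90 (adjusted p 1.93e-05). On the heart side the sodium-calcium exchanger Slc8a1 read 16769, 22798 and 19745 in heart and 1165, 1263 and 869 in extraocular muscle (-3.98 ± 0.14, adjusted p 8.92e-11). The calcium pump Atp2a2 read 23837, 25526 and 39851 in heart and 3398, 2759 and 4891 in extraocular muscle (-2.96 ± 0.20, adjusted p 9.9e-08). Heart was the brighter tissue on every array for both.

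Genes of the junctions between heart muscle cells were higher in heart. Of the intercalated disc and gap junction list, 11 of 13 tested were called in that direction and 0 in the other (median -2.05; 8 without the block). Desmoplakin (Dsp), which ties desmosomes to the cytoskeleton, read 23757, 29389.7 and 29181 in heart and 407, 705 and 624 in extraocular muscle (-5.23 ± 0.27, adjusted p 7.7e-09). Cdh2, the N-cadherin of adherens junctions, read 14747, 14530.2 and 12541 in heart and 487, 378 and 275 in extraocular muscle (-4.70 ± 0.16, adjusted p 8.92e-11). The heart values lay within a narrow band, far above extraocular muscle. Pkp2, a desmosomal plakophilin, gave 5813, 5706 and 11654 in heart and 480.3, 516 and 956 in extraocular muscle (-3.24 ± 0.20, adjusted p 3.38e-08). Gja1, the main ventricular gap junction protein, which was chosen after its values were seen, read 17826, 21824 and 30516 in heart and 4952, 7389 and 4248 in extraocular muscle (-2.05 ± 0.36, adjusted p 0.000976). In both genes heart array 3 was the brightest. Perp, a desmosomal membrane protein that the lists counted as epithelial, read 11259.9, 7054 and 11632 in heart and 364, 265 and 813 in extraocular muscle (-4.03 ± 0.27, adjusted p 7.72e-08). In the skin and mucosal epithelium list as a whole, 2 of 24 tested were higher in heart and 1 higher in extraocular muscle. That was near or below the background of 9.3% and 9.26%. The other heart-side member, the plakoglobin gene Jup, belongs to cardiac junctions as well. Without the block there was 1 heart-side call. Without extraocular array 2 or heart array 2 or 3 there were 2 or 3 calls on the extraocular side.

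Among transcription factors of the heart, 10 of 15 tested were higher in heart (median -1.20; 6 without the block). Nkx2-5, the homeodomain factor of heart muscle, read 1741, 4066 and 6381 in heart and 138, 49.5 and 113 in extraocular muscle (-3.83 ± 0.39, adjusted p 7.29e-06). Hopx, a homeodomain protein without DNA binding, read 19491, 25446 and 32126 in heart and 1541, 1693 and 1666 in extraocular muscle (-3.82 ± 0.24, adjusted p 3.38e-08). Each stood clear of extraocular muscle on every array. Gata6 read 2539.5, 1832 and 4672 in heart and 119, 87.6 and 349 in extraocular muscle (-3.15, adjusted p 1.17e-06). Hand2, a factor of the developing heart, was higher in heart by -1.94 (adjusted p 0.00122). The member higher in extraocular muscle was Mef2c, a MADS-box factor of both muscle types: it read 4194, 4179.5 and 8939.6 in extraocular muscle and 499.5, 839 and 1224 in heart and averaged 7297 in dko leg (2.51 ± 0.28, adjusted p 1.92e-05).

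Of the myogenic regulatory factors and their partners, 11 of 20 tested were higher in extraocular muscle and 1 in heart (median 0.75). The heart-side member, Id3, an inhibitor of such factors, was not called without the block or without extraocular array 1 or 3 or heart array 3. Myf6, the factor of mature fibres, read 3818, 6195 and 7758 in extraocular muscle and 114, 65.2 and 70.5 in heart (4.56 ± 0.36, adjusted p 4.29e-07). Myogenin (Myog), which drives fusion into fibres, read 4099, 3099.9 and 3446 in extraocular muscle and 538, 229 and 516 in heart (2.68 ± 0.27, adjusted p 5.5e-06). Both sets of arrays were well separated. Fst, follistatin, a secreted inhibitor of myostatin, read 1076, 1135 and 1589 in extraocular muscle and 67.6, 55.4 and 112 in heart (2.54, adjusted p 4.06e-06). Myod1, which commits cells to muscle, passed only narrowly at 2372, 2576 and 3601 in extraocular muscle and 1692, 1146 and 567 in heart (1.29, adjusted p 0.0373, 0.0677 without the block).

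Position factors of head and trunk were mostly not called: 6 of 26 tested were higher in extraocular muscle and 1 in heart, against a background of 9.26% and 9.3% (2 and 1 without the block, and 3 in extraocular muscle without heart array 3). Tbx15, a T-box factor known from limb and trunk muscle, was the exception in size. It read 8434, 11414 and 4485 in extraocular muscle and 30.8, 11.5 and 52.3 in heart (5.29 ± 0.27, adjusted p 7.15e-09), averaged 3138 in dko leg, and was called the same way on its other 2 probe sets. Pitx1, a hindlimb factor, was also higher than in heart at 1753, 2247 and 1153 in extraocular muscle and 792, 678 and 462 in heart (1.20, adjusted p 0.000942). Tcf21, a factor of head muscle precursors and of epicardial cells, was the heart-side member (-1.88, adjusted p 5.54e-05).

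The nerve contact of the fibre was another skeletal feature, with 7 of 16 tested neuromuscular junction genes higher in extraocular muscle and 0 in heart (median 0.70). The acetylcholine receptor subunit Chrna1 read 5771, 5666 and 7695 in extraocular muscle and 44.5, 19.9 and 80.3 in heart (4.92 ± 0.17, adjusted p 8.92e-11). The subunit Chrnb1 read 5561, 7317 and 5296 in extraocular muscle and 726, 328 and 262 in heart (3.42 ± 0.22, adjusted p 5.89e-08). No heart array approached an extraocular one. Acetylcholinesterase (Ache), which ends the signal, read 1289.5, 2339 and 7606 in extraocular muscle and 227, 162 and 190.3 in heart (3.09 ± 0.43, adjusted p 0.000129). The fetal receptor subunit Chrng was also higher, at 1121, 1350.1 and 1608 in extraocular muscle and 216, 193 and 566 in heart (1.70 ± 0.30, adjusted p 0.00106). In mdx its difference was 0.36 and not called (adjusted p 0.471), but the change between the genotypes was not called either (adjusted p 0.762).

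Genes of regeneration and embryonic muscle were divided, 10 of 25 tested being higher in extraocular muscle and 5 in heart (median 0.48). The embryonic heavy chain Myh3 read 11529, 14115 and 16067 in extraocular muscle and 106, 21.3 and 63.5 in heart (5.94 ± 0.28, adjusted p 2.92e-09). The neonatal heavy chain Myh8 read 6517, 6538 and 8629 in extraocular muscle and 57.4, 24.6 and 54.2 in heart (5.12 ± 0.18, adjusted p 8.92e-11). Both were steady across the extraocular arrays and close to the bottom of the scale in heart. In dko leg muscle they averaged 8707 and 4779. Peg3, an imprinted gene active in muscle progenitors, was 7.22-fold brighter in extraocular muscle (adjusted p 2.86e-08). The members higher in heart were Cdh2, Tnnt2, Ankrd1, Csrp3 and Myl4, which the normal heart makes as well.

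Of the dystrophin-associated complex and costamere list, 4 of 23 tested were higher in extraocular muscle and 2 higher in heart, against a background of 9.26% and 9.3%, with a median of 0.097. Capn3, a muscle protease tied to titin, read 4501, 5022 and 4554 in extraocular muscle and 2386, 1906 and 991 in heart (1.41, adjusted p 0.00022). Vcl, vinculin of cell contacts, read 8179, 12494 and 10689 in heart and 4846, 7911 and 5862 in extraocular muscle (-0.74, adjusted p 0.000666). Extraocular array 2 came within reach of the heart arrays. Sgcb, a sarcoglycan, was also higher in heart (-0.71, adjusted p 0.00149). Neither heart-side call held without the block (adjusted p 0.201 and 0.076).

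Cardiac stress genes were led by the natriuretic peptides, 8 of 14 tested members being higher in heart and 2 higher in extraocular muscle (median -0.73; 6 and 0 without the block). The 2 extraocular members, Acta1 and Fhl1, came down to 1 when any of the 6 arrays was left out. Nppb read 20946, 22901 and 26582 in heart and 441, 366 and 59 in extraocular muscle (-5.81 ± 0.37, adjusted p 4.09e-08). Corin, the protease that activates the natriuretic peptides, read 5848, 5563 and 6345 in heart and 46.5, 54.8 and 184 in extraocular muscle (-4.58 ± 0.23, adjusted p 5.11e-09). Heart was uniform for both genes. Ankrd1, a titin-binding protein induced by strain, gave 28992, 32357 and 26780.2 in heart and 1228, 1503 and 1704 in extraocular muscle (-4.17 ± 0.29, adjusted p 1.13e-07) and averaged 9324 in dko leg muscle. Fhl2, a cardiac LIM protein, read 28132, 30145 and 45953 in heart and 2795, 2645 and 2087 in extraocular muscle (-3.68, adjusted p 7.28e-08). Its skeletal relative Fhl1 went the other way, with 21589, 22616 and 41016 in extraocular muscle and 8104, 10042 and 10803 in heart (1.49, adjusted p 0.0062, 0.0596 without the block). None of these groups overlapped. Ccn2, a growth factor linked to fibrosis, was higher in heart by -1.74 (adjusted p 0.00218).

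**Figure D3:**
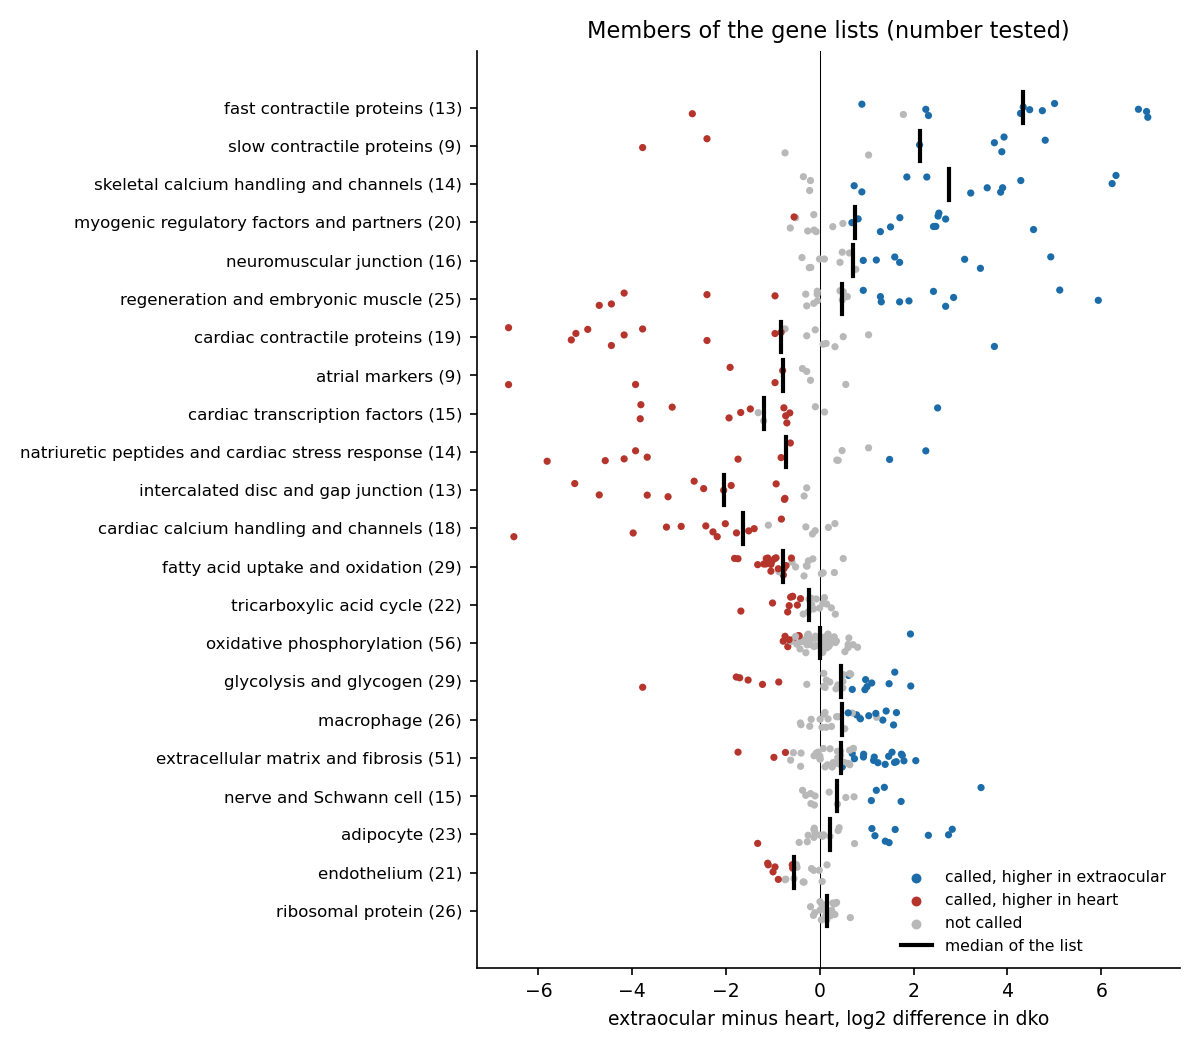
Log2 differences, dko extraocular muscle minus dko heart, of the tested genes of a choice of the lists (number tested in brackets), with called genes blue or red by direction, genes not called grey and the list median as a bar. Junction, cardiac calcium and cardiac factor genes lie mostly below 0, fast contractile and skeletal calcium genes mostly above it, and ribosomal protein genes lie close to it.

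Genes of fat use were higher in heart. Of the genes of fatty acid uptake and oxidation, 17 of 29 tested were higher in heart and 0 in extraocular muscle, with a median of -0.78. That count was 9 without the block. Decr1, which handles unsaturated fatty acids, read 6536, 7909 and 8495 in heart and 2066, 1866 and 2189 in extraocular muscle (-1.82 ± 0.13, adjusted p 1.08e-07). Etfdh, which passes their electrons to the respiratory chain, read 18589, 18648 and 11257 in heart and 5558, 6378 and 2687 in extraocular muscle (-1.75 ± 0.15, adjusted p 1.03e-06). No array of 1 tissue reached the other. Lpl, the lipase that frees fatty acids from lipoproteins, read 27895, 32458 and 33157 in heart and 9479.5, 13209.8 and 14853 in extraocular muscle (-1.33 ± 0.22, adjusted p 0.000556). Acadl, the first enzyme of long-chain oxidation, read 14952, 13332 and 17093 in heart and 8051, 6336 and 5329 in extraocular muscle (-1.19 ± 0.16, adjusted p 8.77e-05).

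The tricarboxylic acid cycle also leaned to heart, 9 of 22 tested genes being higher in heart and 0 in extraocular muscle (median -0.24; 3 without the block, and 5 without heart array 3). Idh2, the mitochondrial isocitrate dehydrogenase, read 21508, 18889.8 and 38105 in heart and 6241, 6236 and 11451 in extraocular muscle (-1.68 ± 0.13, adjusted p 4.41e-07). Array 3 was the brightest in both tissues, and the groups were separate. Suclg2, a succinate-CoA ligase subunit, came next (-1.01, adjusted p 0.000116). For oxidative phosphorylation, 7 of 56 tested subunits were higher in heart and 1 in extraocular muscle, near or below the background of 9.3% and 9.26%, around a median of 0.0016 whose sign turned under quantile normalization. The heart-side count fell to 2 without the block, and it was lowest, 2, among leave-one-out fits, in which extraocular array 1 and heart array 3 each moved it by over 1.5 times. Cox6a2, the heart and muscle form of a cytochrome oxidase subunit, was the extraocular member (1.93, adjusted p 0.0207, 0.424 without the block). Its arrays overlapped, and the call was lost without extraocular array 1 or 2 or heart array 1 (adjusted p up to 0.0704). Cox7a1, a muscle form of a cytochrome oxidase subunit, was higher in heart at 18608, 26699.9 and 21048 in heart and 14220.2, 12933 and 11027 in extraocular muscle (-0.78, adjusted p 0.00121).

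Glycolysis and glycogen genes were split between isoforms, with 9 of 29 tested higher in extraocular muscle (3 without the block) and 6 higher in heart (median 0.45). Pygb, the brain form of glycogen phosphorylase that heart also uses, read 7349.7, 9346 and 12158 in heart and 386, 454 and 830 in extraocular muscle (-3.78 ± 0.24, adjusted p 3.7e-08). Phkg1, the muscle phosphorylase kinase subunit, went the other way with 2985, 3968 and 4154 in extraocular muscle and 739.6, 827 and 944 in heart (1.94 ± 0.14, adjusted p 1.37e-07). Glycogen synthase Gys1 did so too, with 17512, 19785 and 35246 in extraocular muscle and 7614, 5857 and 9454 in heart (1.60 ± 0.16, adjusted p 5.08e-06). All 3 had separate groups. Slc16a1, a lactate transporter, and Ldhb, the lactate dehydrogenase of heart, were higher in heart (-1.78 and -1.71, adjusted p 8.28e-06 and 0.000217). So was Pfkl, the liver form of phosphofructokinase (-1.53, adjusted p 7.62e-06). In the list of creatine kinase, myoglobin and energy buffering, 4 of 12 tested were higher in extraocular muscle and 2 in heart (3 and 0 without the block). Car3, the carbonic anhydrase of slow fibres and fat cells, read 10572, 7383 and 8262 in extraocular muscle and 1337, 69.2 and 708 in heart (3.70 ± 0.53, adjusted p 0.000161). Adssl1, the muscle enzyme of the purine nucleotide cycle, read 12003, 16320.4 and 14686 in extraocular muscle and 3579, 4173 and 4159 in heart (1.80 ± 0.11, adjusted p 3.9e-08).

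**Figure D4:**
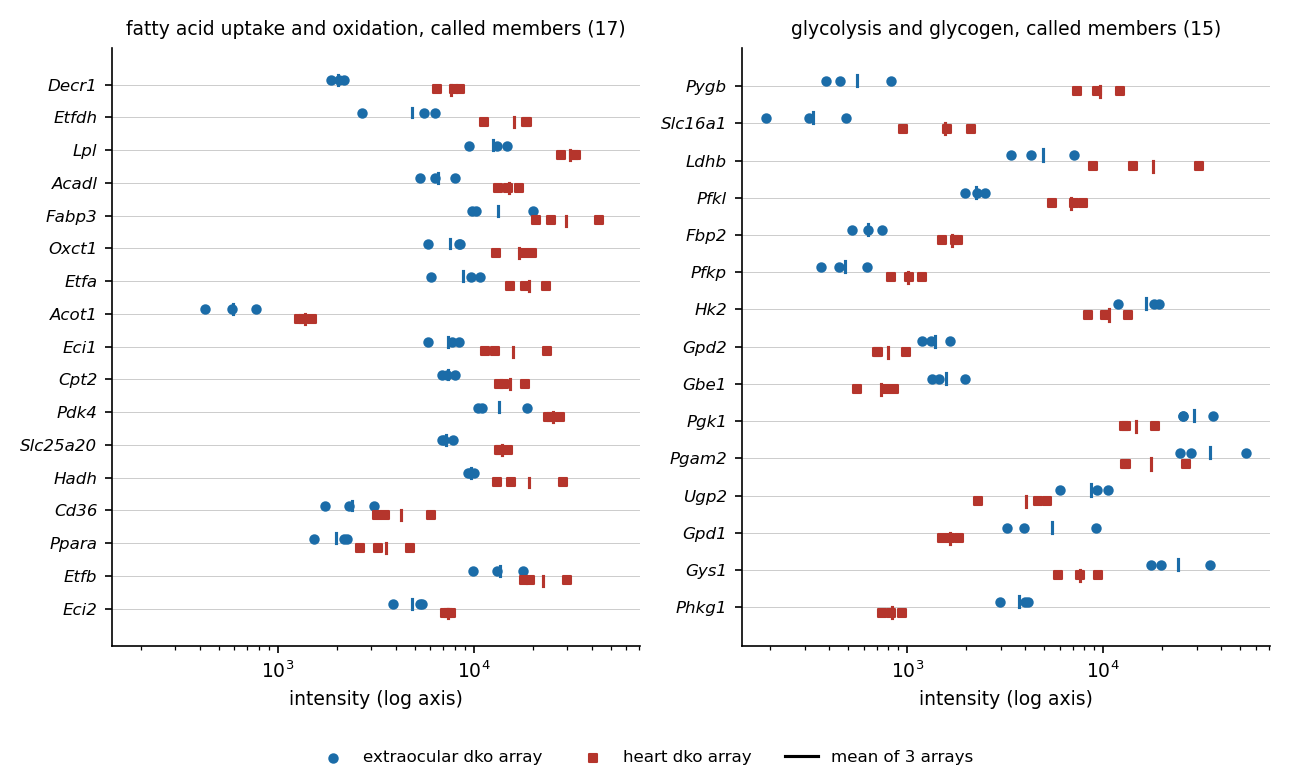
Intensity of each dko array (log axis) for the 17 called genes of fatty acid use (left) and the 15 called genes of glycolysis and glycogen (right), with a bar at the mean of 3 arrays. By the direction of the calls, heart (red) is higher in all 17 of the former and in 6 of the latter, and extraocular muscle (blue) in the other 9. Single arrays need not be separate: 8 tested genes of the glycolysis and glycogen list had every extraocular array above every heart array.

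The arrays measured whole tissue, in which fewer cells of a type and less RNA per cell cannot be told apart, and genes of other cell types also differed. Macrophage genes were higher in extraocular muscle for 9 of 26 tested and higher in heart for 0 (median 0.46). The count was 4 without the block and 5 to 6 when 1 of the 6 arrays was left out, lowest without extraocular array 2 or heart array 3, with no array keeping all 9. The summed intensity of the list ran from 72575 to 76315 in the extraocular arrays and from 46559.6 to 48662 in the heart arrays. Ctss, a protease of antigen presenting cells, read 11122, 10962 and 14143 in extraocular muscle and 3869.8, 3623 and 4309.8 in heart (1.57 ± 0.24, adjusted p 0.000285). Lyz2, lysozyme of macrophages, read 13332, 15999.8 and 11531 in extraocular muscle and 4204, 5587 and 5199.8 in heart (1.41 ± 0.23, adjusted p 0.0006). No heart array reached an extraocular one for either gene. Lgals3, a lectin of activated macrophages, read 2590.5, 3409 and 3879 in extraocular muscle and 783, 708 and 1442 in heart (1.63 ± 0.29, adjusted p 0.000965). Ccr2, a receptor of inflammatory monocytes, read 718, 1308 and 1168 in extraocular muscle and 326, 394 and 219 in heart (1.34 ± 0.21, adjusted p 0.000406). In mdx the same list had 0 members called higher in extraocular muscle, 5 higher in heart and a median of -0.19. No member's change between genotypes was called.

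Of the chemokine, cytokine and complement genes, 7 of 15 tested were higher in extraocular muscle (3 without the block, and 4 at the lowest without extraocular array 1 or 2 or heart array 3) and 0 in heart. Ccl11, which draws eosinophils, read 1624, 1190.5 and 1560.1 in extraocular muscle and 271, 116 and 95.3 in heart (2.34 ± 0.16, adjusted p 1.13e-07). Cxcl14, a chemokine of many epithelia, read 1253, 839 and 2499 in extraocular muscle and 193, 100.1 and 220.3 in heart (2.23 ± 0.24, adjusted p 1.06e-05). The groups were separate for both. Antigen presentation and interferon genes were near background, 4 of 26 tested being higher in extraocular muscle and 1 in heart (median -0.015). The first count was 2 without the block and 1 without extraocular array 1 or heart array 2 and 2 without heart array 3, and the heart-side call was lost without extraocular array 1. T cell genes had 1 call among 4 tested, Thy1 (1.96, adjusted p 0.00539, 0.216 without the block), which fibroblasts and nerve also make. B cell and immunoglobulin genes had 0 among 10, and thymus genes 0 among 6. What immune cells contribute to the tissue difference was not tested.

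Extracellular matrix genes were higher in extraocular muscle in part, with 17 of 51 tested called higher there (11 without the block) and 3 higher in heart (1 without the block; median 0.44). The fibrillar collagen gene Col1a1 read 15308, 18257 and 44312 in extraocular muscle and 5042, 5032 and 11926 in heart (1.76 ± 0.17, adjusted p 4.05e-06, 0.0777 without the block). Its partner chain Col1a2 read 11245, 11437 and 16048 in extraocular muscle and 3154, 2994 and 4749 in heart (1.79 ± 0.18, adjusted p 5.06e-06). Neither gene overlapped between the tissues, but a second Col1a2 probe set was not called (0.028, adjusted p 0.928). Fibromodulin (Fmod), a collagen-binding proteoglycan that the tendon list also holds, read 858, 968 and 3434 in extraocular muscle and 181, 56.4 and 601 in heart (2.05 ± 0.38, adjusted p 0.00145, 0.256 without the block). Array 3 was the brightest of each tissue. Mfap4, a microfibril protein, read 896, 1215 and 1157 in extraocular muscle and 139, 513 and 84.7 in heart (1.74, adjusted p 0.00041). Fbln1, a basement membrane protein, was higher in heart (-0.98, adjusted p 0.00752, 0.132 without the block). In the tendon and cartilage list, 2 of 10 tested were higher in extraocular muscle, against a background of 9.26%. These were Fmod and keratocan (Kera), of which 1 passed without the block.

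Some gland markers were higher in the extraocular arrays. Of the lacrimal and Harderian gland list, 5 of 11 tested were higher in extraocular muscle, 0 in heart, and 6 were not called (median 0.14). The summed intensity of the list ran from 38177 to 45699.9 in the extraocular arrays and from 8386 to 17160.1 in the heart arrays. Bpifa2, a secreted protein of salivary and lacrimal glands, was among the 12 genes highest in extraocular muscle: it read 13929, 13291 and 12165 in extraocular muscle and 574, 141 and 175 in heart (4.96 ± 0.29, 31.1-fold, adjusted p 1.78e-08). Its mean in dko leg was 448. Obp1a, an odorant-binding protein of gland secretions, read 506, 744 and 438 in extraocular muscle and 6.8, 10.4 and 61.5 in heart (1.91 ± 0.38, adjusted p 0.00284). Salivary-type amylase Amy1 read 792, 563 and 712 in extraocular muscle and 276, 87.7 and 80.9 in heart (1.49 ± 0.23, adjusted p 0.000301). Heart arrays were low for each of these genes. In the retina, lens and eye pigment list 0 of 11 tested were higher in extraocular muscle and 1 in heart, the lens crystallin Crybb2 (-0.62, adjusted p 0.0217, 0.758 without the block, and up to 0.122 without array 1 or 2 of either tissue). The share of gland cells in the tissue was not tested.

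Nerve and Schwann cell genes were higher in extraocular muscle for 5 of 15 tested, and for 0 in heart, with a summed intensity from 44608 to 46533 in the extraocular arrays and from 24907 to 35642 in the heart arrays. Mbp, myelin basic protein, read 5529.9, 3989 and 8747 in extraocular muscle and 415, 324 and 415 in heart (3.44 ± 0.22, adjusted p 5.38e-08), though a second probe set was not called (0.058, adjusted p 0.873). Pmp22, a protein of peripheral myelin, read 10384, 10901 and 14939 in extraocular muscle and 4106, 2325 and 4348 in heart (1.73 ± 0.19, adjusted p 1.14e-05). Both were above heart on all arrays. Egr2, the factor that turns on myelination and also an immediate early gene, read 1540.5, 1645 and 1673 in extraocular muscle and 562, 529 and 476 in heart (1.38 ± 0.15, adjusted p 1.03e-05). Adipocyte genes were higher in extraocular muscle for 8 of 23 tested and higher in heart for 1, Lpl, with sums from 88330 to 122567 in the extraocular arrays and from 79941 to 94679 in the heart arrays. Adipoq, the fat cell hormone adiponectin, read 10039.8, 5113 and 5335 in extraocular muscle and 2301, 447 and 385 in heart (2.82 ± 0.35, adjusted p 5.37e-05). Heart array 1 stood above the other heart arrays without reaching extraocular muscle. Scd1, a desaturase of fat and gland cells, read 13022, 14659 and 19673 in extraocular muscle and 3127, 1795 and 1832 in heart (2.74 ± 0.52, adjusted p 0.00177). Retn, the fat cell hormone resistin, read 1897, 1136 and 1036 in extraocular muscle and 225, 92.5 and 92.5 in heart (2.31, adjusted p 0.000598). The part of nerve and fat cells in these differences was not tested.

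Genes of the endothelium and of the epicardium and mesothelium leaned toward heart. The share of these cells in the tissue was not tested. Endothelial genes were higher in heart for 7 of 21 tested and in extraocular muscle for 0 (median -0.55; 2 without the block and 4 without heart array 3). Sox18, a vascular transcription factor, read 3784, 4718 and 5671 in heart and 1416, 2095 and 2951 in extraocular muscle (-1.11 ± 0.16, adjusted p 0.000171). Kdr, the main receptor for vascular endothelial growth factor, read 1289, 1717 and 1314 in heart and 686, 684 and 600.1 in extraocular muscle (-0.96 ± 0.19, adjusted p 0.00273). Heart was above extraocular muscle on every array for both genes. Epicardium and mesothelium genes were higher in heart for 4 of 8 tested. Upk3b, a mesothelial membrane protein, read 2022, 1816 and 1836 in heart and 678, 675 and 78.4 in extraocular muscle (-1.88 ± 0.39, adjusted p 0.00324). Wt1, a factor of the epicardium, read 563, 544 and 406 in heart and 276, 232 and 88.7 in extraocular muscle (-0.91 ± 0.20, adjusted p 0.00509). Of the smooth muscle and pericyte list, 1 of 14 was higher in extraocular muscle, the tropomyosin Tpm2, which skeletal fibres also make (4.28, adjusted p 1.08e-09), and 1 in heart, the pericyte regulator Rgs5 (-0.98, adjusted p 0.000683, 0.159 without the block). Both counts of this list were near or below the background of 9.26% and 9.3%. On the extraocular side the list had 2 calls without extraocular array 1 and 4 without heart array 1. The lung list had 1 call among 4 tested, Hopx.

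Red cell genes disagreed in direction. Alas2, the erythroid enzyme of heme synthesis, was higher in heart, with 7179, 10185 and 10313 in heart and 2143, 1735 and 641 in extraocular muscle (-2.60 ± 0.36, adjusted p 0.000129). Hba-a1, a haemoglobin chain, was higher in extraocular muscle, with 21453, 33937 and 43795 in extraocular muscle and 1191, 2395 and 20871 in heart (2.93 ± 0.78, adjusted p 0.0162). Its heart arrays ran over a wide range, with number 3 close to extraocular array 1, and the call was lost without the block (adjusted p 0.0994) and without array 1 or 2 of either tissue (adjusted p up to 0.0873). Of 8 tested erythroid genes, 1 was called higher in extraocular muscle and 2 in heart, against a background of 9.26% and 9.3%. The second heart-side gene, Bpgm, a red cell enzyme (-0.70), was not called without the block or without extraocular array 1 or 3 or heart array 2 (adjusted p up to 0.108).

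The general programmes were read against the same background of 9.26% and 9.3%. Among cell division genes, 5 of 29 tested were higher in extraocular muscle and 0 in heart, namely Aurka, Kif22, Rrm1, Rrm2 and Stmn1. The count was 1 without the block and as low as 2 when an array was left out, each array but extraocular 2 lowering it by over 1.5 times. Rrm2, which makes deoxynucleotides and kept its call without the block, read 612, 595 and 581 in extraocular muscle and 231, 288 and 246 in heart (0.86 ± 0.16, adjusted p 0.00185). Proteasome, ubiquitin and lysosome genes had 5 and 1 of 37 called in the order extraocular and heart, near or below that background, and any array left out lowered the 5 to 2 or 3. Without the block they were 2 and 0, and the heart-side call was lost without array 2 or 3 of either tissue. The lysosomal protease Ctsz read 1928, 2039 and 1892 in extraocular muscle and 893, 929 and 873 in heart (0.99 ± 0.15, adjusted p 0.000217). Heat shock and oxidative stress genes had 3 and 6 of 35, the latter 2 without the block and as low as 2 without arrays 2 or 3 of either tissue. The inducible chaperone Hspa1a read 1622, 3596 and 2735 in extraocular muscle and 816, 689 and 617 in heart (1.63 ± 0.31, adjusted p 0.0017). Nqo1, a quinone reductase, read 2720.2, 2235 and 1234 in heart and 524, 456 and 298 in extraocular muscle (-1.87 ± 0.35, adjusted p 0.00176). Both were separate on all arrays. Immediate early genes had 2 and 1 of 21: Egr2 and Fos in extraocular muscle, and Ier3, a stress-induced gene, in heart (-1.36, adjusted p 3.67e-05). Fos was not called without the block (adjusted p 0.0541) or without extraocular array 1 or 2 or heart array 2 or 3. Glucocorticoid and fasting genes had 2 and 3 of 22, namely Angptl4 and Cdkn1a, and Foxo3, Mt1 and Pdk4. None of these 5 passed without the block, any array left out lowered the 2 to at most 1, and extraocular array 2 or heart array 3 lowered the 3 by over 1.5 times. Ribosomal protein genes had 0 calls among 26 (median 0.15).

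The same tissues were compared in mdx mice on 6 other arrays. There 1570 probe sets were called (17.7%), 755 higher in extraocular muscle (8.49%) and 815 higher in heart (9.17%). Of the dko calls, 1103 were called in the same direction in mdx, which is 66.8% of the dko calls and 70.3% of the mdx calls, and 0 were called in opposite directions. The sign was the same for 1603 of the 1650. Across all 8888 probe sets the 2 sets of differences correlated at r = 0.866, and across the 1650 called in dko at r = 0.965. These are descriptions, since genes on the same arrays are not independent. The 1650 were also chosen by their dko difference, so 0.965 cannot be set against 0.866. The test of the change between genotypes, dko difference minus mdx difference, called 0 probe sets with limma (smallest adjusted p 0.529), and 416 (4.68%) had an unadjusted p under 0.05. The fit without the block also called 0, with 124 under 0.05 unadjusted. The change between genotypes has a larger SE than the difference within dko, for Ctss 0.34 against 0.24. The 0 calls therefore do not show that the tissue difference is equal in the 2 genotypes.

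**Figure D5:**
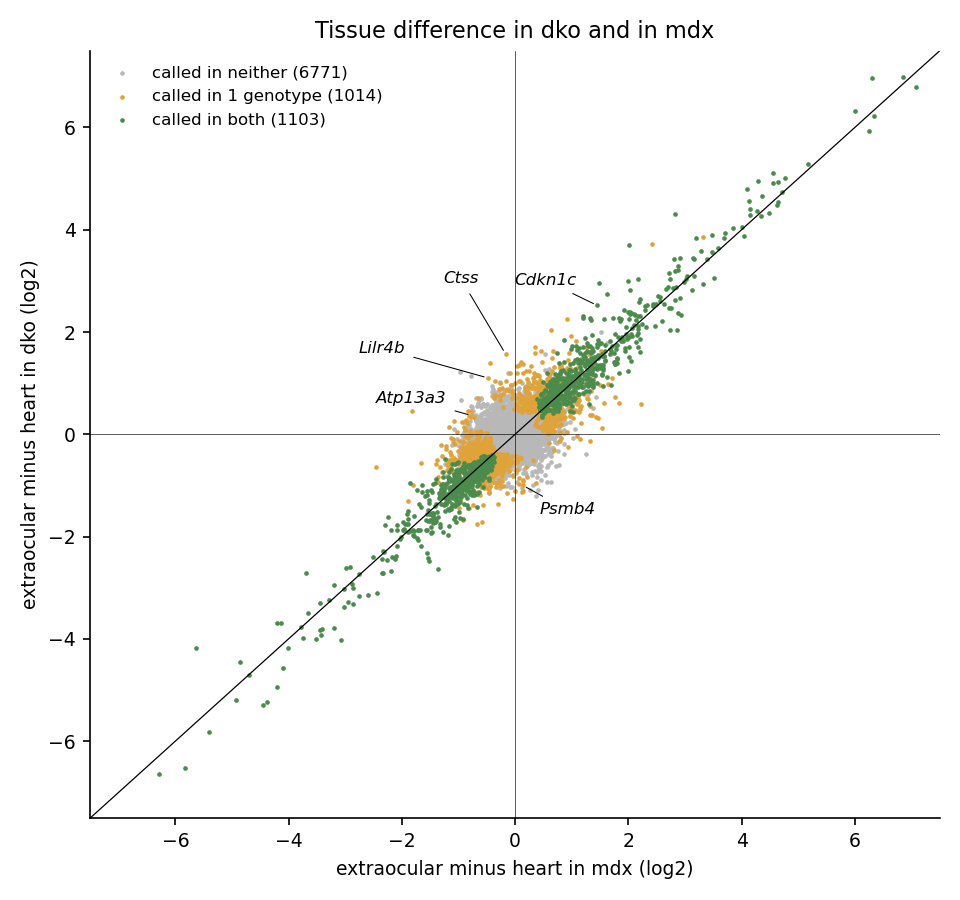
Log2 difference between extraocular muscle and heart in mdx (x) against that in dko (y) for the 8888 tested probe sets, with the 5 named genes of smallest interaction p marked. Green points are the 1103 called in both genotypes, orange those called in 1 and grey those called in neither. Points scatter around the line of equal differences (r = 0.866). None of the 8888 departures from it was called, which does not show that the differences are equal.

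The 5 named genes with the smallest p for that change were not called and are given as values. Ctss differed by 1.57 in dko and by -0.17 in mdx, where extraocular muscle averaged 2944 and heart 3308 (change 1.74, adjusted p 0.529). Lilr4b, an inhibitory receptor of myeloid cells, read 1865, 2087 and 783 in extraocular muscle and 494, 764 and 550 in heart in dko, and its difference was 1.10 (adjusted p 0.00285, 0.125 without the block) against -0.48 in mdx (change 1.58, adjusted p 0.529). Atp13a3, a polyamine transporter, had 0.36 and -0.76 (change 1.12, adjusted p 0.529). Cdkn1c, an inhibitor of cell division, was higher in extraocular muscle in both genotypes, 2.52 in dko and 1.45 in mdx (change 1.07, adjusted p 0.62). Psmb4, a proteasome subunit, had -0.997 on 1 of its probe sets in dko, from 178, 188 and 134 in extraocular muscle and 528, 551 and 418 in heart, and 0.13 in mdx (change -1.13, adjusted p 0.62). Its brighter probe set was not called in dko (0.44, adjusted p 0.061).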

How the data were processed

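RNA of 18 muscle samples was measured on Affymetrix arrays of 1 design, with 12488 probe sets, per the labels and the table itself. The authors deposited linear intensity values; the array software, the summary of probes and the detection calls are not given in the sources used here. The trimmed means of the arrays, with 2% removed from each tail, are nearly equal (1500.69 to 1501.15), which is how scaling was read from the values.

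Each value plus 166.7, the median over arrays of their 25th percentile, was taken to log2. Probe sets above the 40th percentile of an array on at least 3 arrays were kept, 8888 in all. A linear model with 6 group means and the replicate number as a block was fitted to all 18 arrays with limma 3.58.1 in R 4.3.3 (10 residual and 4.04 prior degrees of freedom), and p-values were adjusted over all probe sets tested. The block was set beforehand, after earlier work on these data found same-numbered arrays to deviate alike. Same-numbered extraocular and heart arrays deviated together from their group means in all 3 pairs (correlations 0.365 to 0.661, against -0.569 to 0.231 for different numbers). Deviations from a mean of 3 arrays sum to 0, so negative values are partly built in. Arrays numbered 1 and 2 also correlated positively across the tissues (0.231 and 0.0998), while those numbered 3 correlated negatively with both. The labels do not say what the number marks.

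Probe sets were named through the platform annotation: 10833 have 1 symbol, 396 several and 1193 none, and none with several is named as a gene. Where a gene has several probe sets, the one brightest on average stands for it. The 66 control probe sets gave 0 calls. The members and the 43 gene lists were chosen with earlier results of these data known. Named genes are the 12 widest calls in each direction, up to 4 calls a list in each direction, defining members that did not pass, Utrn, Dmd, and the 5 smallest p-values between genotypes. The fit was run on data simulated from its own model, with the block and independent noise. That run cannot show whether the block suits these arrays. Alternatives changed the block, arrays, offset, scaling, filter and variance model, and left out each array. Python 3.11.15 with pandas 2.3.3 and matplotlib 3.10.9 drew the figures.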

Additional observations from a re-analysis of the deposited data

Results flagged for a closer look

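A difference between the genotypes drew attention in 3 of the 165 named probe sets, each by the unadjusted p of the interaction term in the limma fit. All 3 are among the 5 genes named for the smallest such p, so their presence here follows from that choice. Over all 8888 probe sets tested, 416 (4.68%) had an unadjusted p under 0.05. None of the 3 passes after adjustment over the 8888, so none is a call. Atp13a3 differed between extraocular muscle and heart by 0.36 in dko and by -0.76 in mdx (log2, interaction p 0.000117, adjusted p 0.529). Ctss, a protease of macrophages and other antigen presenting cells, differed by 1.57 in dko and by -0.17 in mdx (interaction p 0.000143, adjusted p 0.529). Lilr4b, a receptor of myeloid cells, differed by 1.10 in dko and by -0.48 in mdx (interaction p 0.000185, adjusted p 0.529).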

How the results depend on the processing

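None of the 165 named probe sets checked reversed under any of the 18 alternative settings of the fit. The 24 genes of widest difference kept their calls in all of these settings. They were chosen as the widest calls on these same arrays, so this follows in part from the choice. Utrn, Dmd and the defining members that did not pass, such as Gata4, were not among the 165. Of the 165 named probe sets, 74 lost their call in at least 1 setting, 51 of them without the replicate block and 39 when 1 of the 6 arrays was left out. Of the 43 list medians, 36 kept their sign in every setting, and 7 did not: B cell, antigen presentation, immediate early, oxidative phosphorylation, skin and thymus, with medians from -0.038 to 0.089, and T cell, with -0.20 over 4 genes.

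The number of calls, 823 in extraocular muscle and 827 in heart, depended on the block and on the arrays fitted. With no replicate block it was 376 and 305. With only the 6 dko arrays and the block it was 486 and 417, and with these arrays and no block 241 and 168. Without all arrays numbered 3 it was 513 and 444. The calls of at least 2-fold, 376 and 289, were 238 and 166 with the 6 arrays and no block, and 219 and 159 with the offset 4 times as large, which shrinks folds by construction. Fewer arrays also leave fewer degrees of freedom; other causes were not tested. Leaving out 1 of the 6 arrays gave 616 to 696 and 600 to 680 calls, and 361 to 394 and 279 to 306 of at least 2-fold, each lowest without heart array 3. The interaction with genotype gave 0 calls in every setting. With 3 arrays a group, dim probe sets give only folds shrunk by the offset.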

Other observations

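Some of the widest differences belong to probe sets that the annotation gives no gene or several genes, and they are given here by their values. A probe set with no gene in the annotation read 4091, 5519.3 and 4489 in dko extraocular muscle and 26.5, 35.9 and 64.4 in dko heart (4.54, limma adjusted p 8.92e-11). Its means in mdx were 5373 and 53.1. Another, which the annotation gives to several genes, read 34448, 42516 and 53661 in extraocular muscle and 779, 706 and 12349 in heart (4.30, limma adjusted p 0.000469). The third heart array stood far above the other heart arrays, as it did for the haemoglobin gene Hba-a1.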
